A study of Homo sapiens with 8 samples.

Results

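Small nucleolar RNA host genes are transcription units, most of them not protein-coding, whose introns hold small nucleolar RNAs (snoRNAs). The genes described here are those whose GENCODE release 29 symbol starts with SNHG, together with GAS5, ZFAS1, EPB41L4A-AS1 and TAF1D. The rule gave 29 gene IDs under 28 symbols (SNHG28 has 2 IDs), of 58735 gene IDs in the count files, and it used no measured value. The cells were MOLM-13, a line derived from human acute myeloid leukemia that carries an MLL fusion and an internal tandem duplication of FLT3. The 4 cultures analysed gave 1 bulk RNA-seq library each: untreated parental cells (replicate 2, at most 20 passages), and vehicle cells that had gone through 1, 3 or 5 treatment courses with 1% DMSO in place of busulfan. The labels name these vehicle cultures 1TDMSO, 3TDMSO and 5TDMSO, and they give no passage number for them, so time in culture and the number of courses cannot be told apart. The other parental library and the busulfan libraries were not analysed here. One cell line was used, the labels do not say whether the vehicle cultures form 1 lineage, and the p-values reflect no more than the spread among the 4 libraries, which may be technical.

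snoRNAs guide the chemical modification of ribosomal RNA: C/D box snoRNAs direct methylation of the ribose, and H/ACA box snoRNAs direct the change of uridine to pseudouridine. In vertebrates most of them are cut out of introns after splicing, so the spliced exons of a host gene are left as a separate product. Many host RNAs begin with a C followed by a run of pyrimidines, the terminal oligopyrimidine tract best known from mRNAs of ribosomal proteins and translation factors, and many are loaded on ribosomes and removed by nonsense-mediated decay. GAS5, the best-studied case, was named for its accumulation in growth-arrested cells.

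The start sites of the hosts are shown first, because the pyrimidine tract is the feature that ties these genes to the ribosomal protein genes. Sequences are from RefSeq promoters on GRCh38.p14, in which 24 of the 28 symbols were matched. Each runs 5′ to 3′ on the gene's strand from 40 bases before the start to 20 bases from the start onward, with capitals for a C followed by at least 4 pyrimidines within 10 bases of the start and for TATAA, the core of a TATA box, within 40 to 16 bases before it. Pyrimidine runs farther from the start are left in lower case. The first group holds the 6 hosts of highest mean level that had an entry and were printable.
GAS5, chr1:173869026-173869085, minus strand: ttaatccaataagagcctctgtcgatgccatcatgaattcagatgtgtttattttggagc
ZFAS1, chr20:49278602-49278661, plus strand: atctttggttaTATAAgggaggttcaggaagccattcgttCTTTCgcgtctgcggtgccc
SNHG1, chr11:62855866-62855925, minus strand: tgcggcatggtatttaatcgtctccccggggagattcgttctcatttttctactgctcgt
TAF1D, chr11:93741476-93741535, minus strand: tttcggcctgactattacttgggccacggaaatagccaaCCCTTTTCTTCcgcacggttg
SNHG14, chr15:24823568-24823627, plus strand: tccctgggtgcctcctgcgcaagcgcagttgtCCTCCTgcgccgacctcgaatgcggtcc
SNHG3, chr1:28505903-28505962, plus strand: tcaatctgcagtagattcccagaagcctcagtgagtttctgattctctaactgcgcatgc
A second group, SNHG8, SNHG5 and SNHG12, was chosen after the matches were seen, because each holds both motifs.
SNHG8, chr4:118278722-118278781, plus strand: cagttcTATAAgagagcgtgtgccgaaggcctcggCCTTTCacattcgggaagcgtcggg
SNHG5, chr6:85678714-85678773, minus strand: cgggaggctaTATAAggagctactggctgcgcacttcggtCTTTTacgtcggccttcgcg
SNHG12, chr1:28581854-28581913, minus strand: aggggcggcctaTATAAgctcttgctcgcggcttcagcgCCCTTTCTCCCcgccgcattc

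A C and at least 4 pyrimidines at the annotated start base itself occurred in 7 of the 24 host promoters: SNHG4, SNHG5, SNHG12, SNHG18, SNHG19, TAF1D and ZFAS1. The share over all 35116 RefSeq promoters was 4.07%, and among ribosomal protein genes it was 42 of 61 (68.9%). With the tract allowed anywhere within 10 bases of the start, 12 of 24 host promoters matched, against 28.2% of all promoters. On the other strand, 3 of 24 matched, against 24.9%. TATAA within 40 to 16 bases before the start was present in 6 of 24 host promoters (SNHG5, SNHG7, SNHG8, SNHG12, SNHG19 and ZFAS1), against 3.91% of all promoters. On the other strand it was present in 1 of 24, against 1.73%. A match is a description of these letters, and where the annotated start is off by a few bases a tract is missed.

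GAS5 shows that dependence on the annotated start. The RefSeq start used above lies 163 bases from the outermost GAS5 start in GENCODE, and the window has no tract within 10 bases of that start, whereas 6 of the 29 GAS5 transcripts in GENCODE release 29 begin with one. In SNHG14 the RefSeq and GENCODE starts lie 154975 bases apart. The distance was 42896 bases in TAF1D, 1259 in SNHG12 and 464 in ZFAS1. It was 53 in SNHG8, 37 in SNHG3, 29 in SNHG1 and 15 in SNHG5. The first 20 bases of transcripts of 6 hosts, with the tract in capitals, set GAS5 beside hosts with a range of level patterns. Among these, SNHG16 was, like GAS5, highest after course 5. SNHG6, ZFAS1 and SNHG8 were also highest after course 5. They have transcripts that begin with a tract too, and are not among the 6.
GAS5: CTTTTCgaggtaggagtcga
SNHG16: CTTTTCgaggtcggccgcgt
SNHG19: CTTTTCggggtcgagtccga
SNHG25: CTTTCagcgcctgcaggttc
SNHG4: CCTTTCCCCTCCggcctctg
SNHG3: CCTTTTTggagacagattcg
GAS5, SNHG16 and SNHG19 begin with the same 6 letters. A tract began 36 of 275 host transcripts (13.1%), against 4979 of 206694 transcripts of all genes (2.41%), and 15 of the 28 host symbols had at least 1 such transcript. Annotated transcripts can begin inside a gene, so a share of transcripts is not a share of start sites. The share of all gene symbols with at least 1 such transcript was not computed. A symbol with more annotated transcripts has more chances to match, so the count of host symbols has no background.

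Libraries held 44795976 to 56825811 counts assigned to genes. Reads aligned to several places made up 13.9% of all counted reads in the parental library, 15.4% and 14.2% after courses 1 and 3, and 21.3% after course 5; their part in the results was not tested. The labelled cell type was checked with 10 myeloid genes, which were detected in each library and summed to 2391 to 3163 CPM (reads of a gene scaled to a fixed library total). Markers of erythroid cells summed to at most 0.05 CPM. From parental to course 5, T and B cell markers summed to 6.68, 3.88, 0.60 and 0.50 CPM, with CD2 and MS4A1 at 0. Epithelial and fibroblast markers summed to 43.4, 22.9, 12.6 and 10.5 CPM, most of it KRT8 and KRT18, with COL1A1 at 3.14, 2.51, 0.20 and 0.11 CPM and EPCAM at no more than 0.044 CPM. The part of other cells in the host gene values was not tested, and in bulk RNA fewer cells of a type and less RNA per cell cannot be told apart.

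Of the 29 host IDs, 25 passed the filter on low counts and 17 had a mean of at least 10 CPM. SNHG18, SNHG27 and 1 SNHG28 ID had 0 counts in all 4 libraries, for which 3 counts is the upper limit in each. The other SNHG28 ID had 1, 2, 2 and 0 counts. CPM values below are scaled by TMM, a normalization that assumes most genes do not differ, and are listed in the order parental, course 1, course 3, course 5. A single-library ratio is called when it is at least 2-fold and its 95% interval, which covers counting error only, excludes equal levels.

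**Figure D1:**
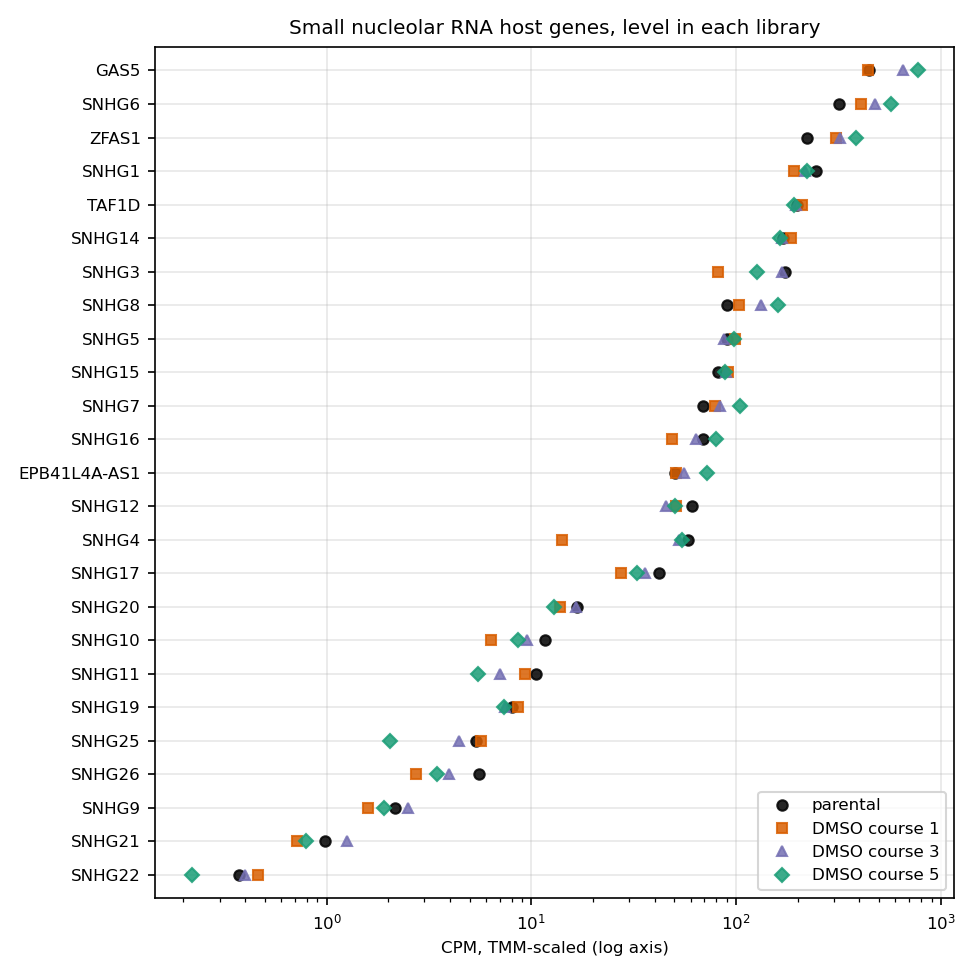
Level of the 25 tested host genes in the 4 libraries, in TMM-scaled CPM on a log axis, with 1 point per library and genes ordered by mean level. GAS5, SNHG6, ZFAS1 and SNHG8 have their highest point after course 5, and SNHG4 has 1 point, after course 1, far below its other 3.

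The hosts did not move as 1 group. GAS5, SNHG6, ZFAS1 and SNHG8 were 1.73 to 1.79 times as abundant after course 5 as in parental cells. SNHG4 and SNHG3 were lowest after course 1, at 0.24 and 0.47 times the parental level, and stood at 0.90 and 0.98 times parental after course 3. SNHG25 and SNHG11 were lowest after course 5, at 0.38 and 0.52 times parental. SNHG7 and EPB41L4A-AS1 were higher after course 5, at 1.51 and 1.45 times parental, and SNHG26, SNHG10, SNHG17 and SNHG16 were lower after course 1, at 0.49 to 0.71 times parental. TAF1D, SNHG14, SNHG5 and SNHG15 stayed within 1.13-fold over the 4 libraries.

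GAS5, the host with the most counts, had 446, 440.2, 651 and 774 CPM. Parental and course 1 cells did not differ beyond counting error (log2 ratio -0.02, 95% interval -0.047 to 0.0072), and both later libraries were above them. The course 5 to parental log2 ratio was 0.79 (0.77 to 0.82), and course 5 also exceeded course 3, by 0.25 (0.23 to 0.27). GAS5 RNA is known as a decoy for the glucocorticoid receptor and as a decay substrate coupled to translation.

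SNHG6, which holds SNORD87, had 316, 408, 477 and 568 CPM. Each library was higher than the one before it. The log2 ratios to parental were 0.37, 0.59 and 0.84, and the interval of the last ran from 0.82 to 0.87.

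ZFAS1, the host of the SNORD12 group of C/D box snoRNAs, had 222, 308, 321 and 386 CPM. The log2 ratio to parental was already 0.47 (0.44 to 0.51) after course 1 and was 0.80 (0.77 to 0.83) after course 5. ZFAS1 is transcribed head to head with ZNFX1 and 26.1% of its exon bases lie opposite another gene. ZNFX1 itself had 33.7, 26.6, 41.4 and 48.3 CPM, so it was below parental after course 1, where ZFAS1 was above.

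SNHG8, which holds the H/ACA box snoRNA SNORA24, had 90.2, 103, 132 and 161 CPM. The order was the same as in SNHG6 and ZFAS1, and the course 5 log2 ratio to parental was 0.83 (0.78 to 0.88). SNHG7, host of SNORA17A and SNORA17B, had 69.1, 78.6, 83.5 and 105 CPM, with a course 5 log2 ratio of 0.60 (0.54 to 0.66). EPB41L4A-AS1, host of SNORA13, had 50.0, 50.9, 55.9 and 72.4 CPM, and only courses 3 and 5 stood above parental beyond counting error. Its course 5 log2 ratio was 0.53 (0.46 to 0.61), and 49.6% of its exon bases lie opposite another gene.

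These 6 hosts had their highest level after course 5, as did SNHG16. That makes 7 of the 25 tested, against 30.4% of all genes tested. The levels of 5 hosts were in rising order through all 4 libraries (ZFAS1, EPB41L4A-AS1, SNHG7, SNHG6 and SNHG8), against 7.91% of all genes, and those of SNHG11 alone were in falling order (7.12%).

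**Figure D2:**
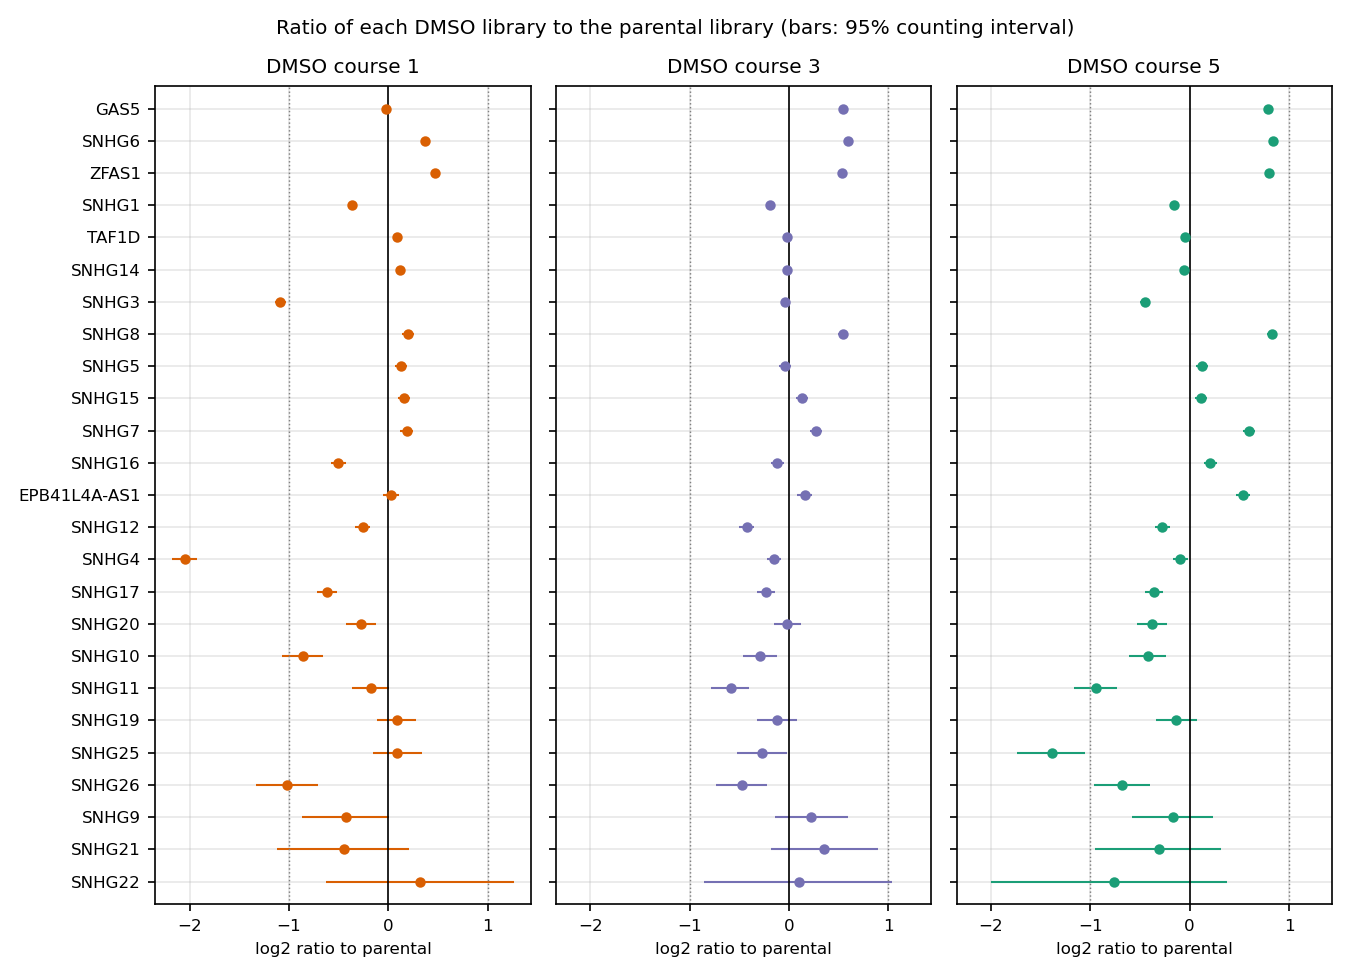
Log2 ratio of each DMSO library to the parental library for the 25 tested host genes, with 95% intervals for counting error and dotted lines at 2-fold. GAS5, SNHG6, ZFAS1 and SNHG8 lie at 0.79 to 0.84 after course 5, and SNHG4 lies at -2.05 after course 1 and near 0 afterwards.

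SNHG4, host of SNORA74A, had 58.5, 14.2, 52.7 and 54.7 CPM. The course 1 library stood apart from the other 3, with a log2 ratio to parental of -2.05 (-2.17 to -1.92). After courses 3 and 5 the ratios were -0.15 (-0.22 to -0.077) and -0.096 (-0.17 to -0.021). SNHG4 shares 14.0% of its exon bases with genes on the same strand, chiefly MATR3, and HTSeq in its usual mode leaves reads from shared bases out of both. MATR3, under its more abundant gene ID, had 8.72, 14.6, 7.70 and 8.29 CPM, so that ID was highest in the library where SNHG4 was lowest. The other MATR3 ID had 40, 21, 40 and 34 counts, or 0.68, 0.49, 0.80 and 0.75 CPM, and was lowest after course 1, as SNHG4 was. How far the MATR3 IDs overlap each other was not examined. Reads from bases they share would be left out of both, so these values need not be the level of MATR3.

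SNHG3, host of SNORA73A and SNORA73B, had 172, 81.2, 168 and 126 CPM. The log2 ratio to parental was -1.09 (-1.14 to -1.03) after course 1, -0.035 (-0.077 to 0.0069) after course 3 and -0.45 (-0.49 to -0.40) after course 5. SNHG3 lies in front of RCC1, the exchange factor of the Ran GTPase, and the genes share exon bases. RCC1 had 119, 74.3, 106 and 115 CPM and was also lowest after course 1, but was back near parental after course 5, where SNHG3 was not.

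SNHG26, host of SNORD93, had 5.54, 2.74, 3.98 and 3.47 CPM, and its course 1 log2 ratio was -1.02 (-1.33 to -0.71). SNHG10, host of SCARNA13, had 11.6, 6.38, 9.50 and 8.65 CPM. SNHG17, host of the SNORA71 group, had 41.9, 27.4, 35.8 and 32.7 CPM. SNHG26, SNHG10 and SNHG17 were below parental in all 3 DMSO libraries and lowest after course 1. SNHG16, host of the SNORD1 group, had 69.0, 48.7, 63.6 and 79.8 CPM, so it was below parental after courses 1 and 3 and above it after course 5. SNHG1, which holds a series of C/D box snoRNAs from SNORD22 to SNORD30, had 247, 191, 217 and 222 CPM, with the largest distance to parental, a log2 ratio of -0.37 (-0.41 to -0.33), after course 1.

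Of the 25 tested hosts, 3 were called lower after course 1 than in parental cells (SNHG4, SNHG3 and SNHG26), against 8.51% of all genes tested, and none was called higher, against 6.85%. At a threshold of 1.5-fold SNHG10 and SNHG17 joined them, for 5 of 25 against 16.4%. In all, 10 of the 25 were lowest after course 1, against 32.6% of all genes. After course 3 no host was called in either direction relative to parental (5.73% of all genes were called higher and 7.93% lower). At 1.5-fold SNHG6 was higher (10.3%) and SNHG11 lower (12.5%). Between courses 1 and 3, SNHG3 and SNHG4 were called higher (6.9%), by log2 ratios of 1.05 and 1.90, and none lower (8.64%). At 1.5-fold SNHG9 and SNHG21, both near 1 to 2 CPM, joined them as higher, for 4 of 25 against 14.6%, with none lower (15.4%). No host was higher at 1.5-fold in course 1 relative to parental (14.5%).

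SNHG25, host of SNORD104, had 5.34, 5.69, 4.44 and 2.04 CPM, from 316, 245, 223 and 93 counts. The first 2 libraries did not differ beyond counting error. The course 5 library stood below the other 3, with a log2 ratio of -1.39 (-1.74 to -1.05) to parental and -1.12 (-1.49 to -0.77) to course 3. In exon length SNHG25 is among the shortest hosts, and 48.6% of its exon bases are shared with small RNA genes. SNORD104, counted separately, had 642, 415, 382 and 183 counts, or 10.8, 9.63, 7.60 and 4.02 CPM, and was likewise lowest after course 5.

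SNHG11, host of SNORA60, had 10.6, 9.33, 7.03 and 5.49 CPM. The log2 ratios to parental were -0.18 (-0.36 to 0.0040), -0.59 (-0.78 to -0.40) and -0.95 (-1.16 to -0.73), so the last 2 libraries were below parental beyond counting error. SNHG20, host of SCARNA16, had 16.7, 13.8, 16.5 and 12.9 CPM, with courses 1 and 5 below parental and course 3 at its level. SNHG12, host of SNORA44 and SNORD99, had 60.8, 50.8, 45.3 and 50.3 CPM. All 3 DMSO libraries were below parental, and course 3 was the lowest.

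SNHG25 was the only host called after course 5 relative to parental, among 25 tested. Over all genes tested, 11.6% were called lower and 6.35% higher in that comparison. At 1.5-fold, 5 hosts were higher (GAS5, SNHG6, ZFAS1, SNHG8 and SNHG7), against 13.2% of all genes, and 3 were lower (SNHG11, SNHG25 and SNHG26), against 18.2%. Between courses 1 and 5, SNHG4 was called higher (9.68%) and SNHG25 lower (13.6%), and at 1.5-fold 5 were higher (GAS5, SNHG3, SNHG4, SNHG8 and SNHG16, against 18.6%) and 2 lower (SNHG11 and SNHG25, against 21.1%). Between courses 3 and 5, SNHG25 was called lower (4.21%) and none higher (1.8%), and at 1.5-fold SNHG21 joined SNHG25 as lower (8.19%), with none higher (3.48%). In all, 7 hosts were lowest after course 5, against 31.0% of all genes.

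Another 4 abundant hosts varied little. TAF1D, a protein-coding member that encodes a subunit of the RNA polymerase I selectivity factor and holds 8 snoRNA genes, had 199, 211, 197 and 192 CPM. SNHG14, the long transcript of the Prader-Willi region that holds the SNORD115 and SNORD116 clusters, had 169.7, 184, 168 and 164 CPM. SNHG5, host of SNORD50B, had 89.8, 98.3, 87.4 and 97.9 CPM. SNHG15, host of SNORA9, had 81.9, 91.4, 89.5 and 88.6 CPM, so each DMSO library was slightly above parental. Among low hosts, SNHG19 had 7.37 to 8.56 CPM, SNHG9 1.60 to 2.51, SNHG21 0.72 to 1.25 and SNHG22 0.22 to 0.46, and the intervals of their ratios to parental included equal levels in all 3 DMSO libraries. TAF1D, SNHG5, SNHG14, SNHG15, SNHG19, SNHG22 and SNHG25 were highest after course 1, as 7 of 25 against 31.8%. SNHG5 and SNHG12 were lowest after course 3 (11.7%), and SNHG9 and SNHG21 highest there (12.6%).

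Relative to parental cells, 6 of 25 hosts were above in all 3 DMSO libraries (ZFAS1, EPB41L4A-AS1, SNHG15, SNHG7, SNHG6 and SNHG8), against 24.6% of all genes, and 9 were below in all 3, against 25.2%. Those below were SNHG1, SNHG3, SNHG4, SNHG10, SNHG11, SNHG12, SNHG17, SNHG20 and SNHG26. With scaling by total counts alone, EPB41L4A-AS1 left the first group and SNHG19, SNHG25 and TAF1D entered the second, for 5 above (19.5%) and 12 below (30.6%). Hosts with a tract-initiated transcript were found on both sides. They made up 3 of the 6 above (SNHG6, SNHG8 and ZFAS1) and 5 of the 9 below (SNHG1, SNHG3, SNHG4, SNHG11 and SNHG12). Of the 10 on mixed sides, 6 had one (GAS5, SNHG5, SNHG16, SNHG19, SNHG25 and TAF1D). At least 1 such transcript was enough, so hosts with more annotated transcripts had more chances to match. Among hosts above, a tract began 3 of 5 transcripts of SNHG6, 1 of 5 of SNHG8 and 3 of 10 of ZFAS1. Among hosts below, it began 1 of 25 of SNHG1, 1 of 15 of SNHG11 and 4 of 17 of SNHG12. For SNHG3 it was 1 of 3 and for SNHG4 4 of 9. Sides were set by sign alone, so some rest on ratios within counting error. Examples are the course 1 log2 ratios of GAS5 (-0.020, mixed) and EPB41L4A-AS1 (0.027, above), and the course 3 ratio of SNHG3 (-0.035, below). The median log2 ratio of the 25 hosts to parental was -0.020, -0.018 and -0.13 after courses 1, 3 and 5, and that of all genes tested was 0.0030, -0.0038 and -0.016.

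Fits of 2 models over 18612 genes used the spread between libraries. The first set the 3 DMSO libraries together against the parental library, and the second fitted a slope over 0, 1, 3 and 5 courses. In the first, the spread came from the 3 DMSO libraries alone, so differences between their courses counted as spread. The 1 parental library added nothing to it. With the quasi-likelihood test of edgeR and p-values adjusted by Benjamini-Hochberg, neither called a gene (0.0% of those tested), and the smallest adjusted p over all genes was 0.109 for the first and 0.0713 for the second. At an unadjusted p under 0.05 the first called 1045 genes, with no host among them, against 2.55% of all genes higher and 3.07% lower. The slope fit had an unadjusted p under 0.05 for 2940 genes, among them 5 hosts with a rising slope, against 6.13% of all genes, and 2 with a falling slope, against 9.67%. DESeq2's Wald test called 211 of 17890 genes in the first comparison and 880 of 18251 in the second. With limma-voom 0 of 18612 were called in each. Neither method called any of the 25 hosts.

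**Figure D3:**
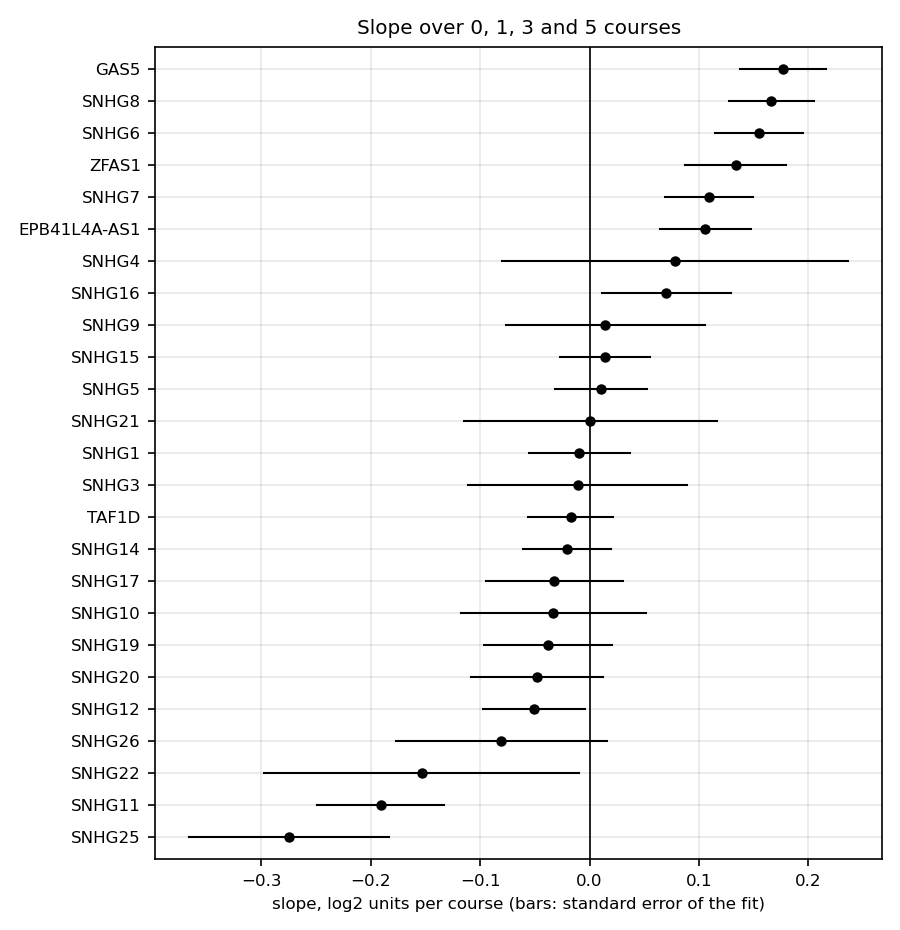
Slope over the courses in log2 units per course for the 25 tested hosts, with standard errors of the edgeR fit. GAS5 and SNHG8 have the highest slopes and SNHG25 and SNHG11 the lowest, and none passed the adjusted threshold.

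The hosts with the steepest rise were GAS5, with a slope of 0.18 per course (SE 0.0405, edgeR adjusted p = 0.200), and SNHG8, with 0.17 (SE 0.0398, edgeR adjusted p = 0.204). SNHG6 had 0.16 (SE 0.0411, edgeR adjusted p = 0.226), ZFAS1 0.13 (SE 0.0471, adjusted p = 0.284) and SNHG7 0.11 (SE 0.0411, adjusted p = 0.298). EPB41L4A-AS1, with 0.11 (SE 0.0425, adjusted p = 0.317), was the next. SNHG25 had -0.27 (SE 0.092, adjusted p = 0.274) and SNHG11 -0.19 (SE 0.0591, adjusted p = 0.254). In the first fit the smallest p among the hosts belonged to ZFAS1, with a log2 difference of 0.61 (SE 0.25, adjusted p = 0.912), and SNHG6 had 0.61 (SE 0.28, adjusted p = 0.928).

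Leaving out the course 1 library changed these calls. Without it the slopes of GAS5 (0.16, adjusted p = 0.0106), SNHG6 (0.17, adjusted p = 0.00854), ZFAS1 (0.16, adjusted p = 0.00952), SNHG8 (0.17, adjusted p = 0.00742) and SNHG7 (0.12, adjusted p = 0.0276) passed by edgeR, as 5 of 25 hosts against 6.91% of all genes. SNHG11 (-0.19, adjusted p = 0.0481) passed as the 1 falling host, against 8.59%. In the DMSO against parental fit without course 1, SNHG8 was called (log2 difference 0.70, edgeR adjusted p = 0.0271), as 1 of 25 against 4.6% of all genes higher, and no host lower, against 6.51%. Without the parental library, GAS5, SNHG4, SNHG8 and SNHG16 had rising slopes that passed (4 of 25 against 9.19%), and SNHG25 a falling one (1 of 25 against 11.9%). The ZFAS1 slope was then 0.081 (adjusted p = 0.249). Without course 5 the slope of SNHG25 was -0.10 and that of EPB41L4A-AS1 0.056, neither passing. Each of these fits had 1 residual degree of freedom.

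Together the hosts took 0.255% of all gene counts in the parental library (exact 95% binomial interval 0.253 to 0.256), 0.234% (0.233 to 0.236) after course 1, 0.286% (0.285 to 0.288) after course 3 and 0.325% (0.323 to 0.327) after course 5. In TMM-scaled CPM the sums were 2445, 2438, 2898 and 3216. GAS5, SNHG6 and ZFAS1 alone summed to 985, 1157, 1449 and 1728 CPM, while the other hosts summed to 1460.2, 1281, 1448 and 1489 CPM. These named hosts were picked for the highest mean CPM over the same 4 libraries, so the split depends in part on the values it describes. In the parental library SNHG1, with 247 CPM, stood above ZFAS1, with 222 CPM. The sum of the others is a net value over hosts that were higher, such as SNHG8, and lower, such as SNHG3, after course 5. The share of all host counts taken by GAS5, SNHG6 and ZFAS1 was 40.3%, 47.5%, 50.0% and 53.7% in the 4 libraries.

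**Figure D4:**
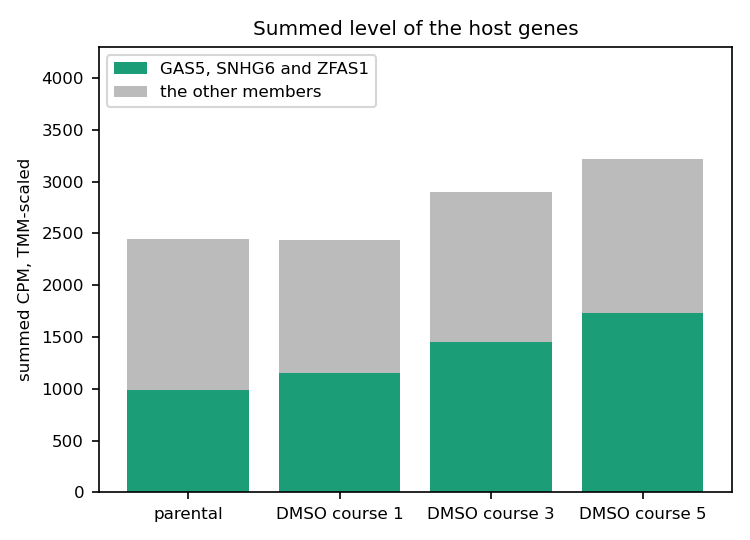
Summed level of the host genes in each library in TMM-scaled CPM. Bars are split into GAS5, SNHG6 and ZFAS1, picked for the highest mean level over these same libraries, and the other hosts. The lower segment goes from 985 to 1728 CPM and the upper one stays between 1281 and 1489 CPM.

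Per kilobase of exon, using all annotated exons of a gene, the order of levels changed. SNHG6 had the highest mean, 355 CPM per kb, ahead of GAS5 with 159, ZFAS1 with 138 and SNHG8 with 132. These came before SNHG1 with 58.4, SNHG3 with 33.5 and SNHG5 with 33.3. Over the 4 libraries ZFAS1 spanned 99.0 to 172 CPM per kb, SNHG8 97.7 to 174 and GAS5 121 to 213, so the ranges overlapped. Within each library GAS5 was above SNHG8, and it was above ZFAS1 in all but course 1. ZFAS1 and SNHG8 were close except after course 1, with 138 and 112 CPM per kb. SNHG14, with 43324 exon bases, had 3.96 CPM per kb despite its high total. Because annotated exons include retained introns, per-length values depend on the annotation.

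The snoRNAs themselves were hardly measured. The annotation places 144 snoRNA genes inside the hosts, 84 of them in SNHG14 and none in GAS5 as given in release 29. Of these, 51 overlap an annotated host exon, where HTSeq in its usual mode assigns reads to neither gene. Of the 38 outside SNHG14 in that position, 37 had 0 counts in all 4 libraries. The 22 outside SNHG14 that overlap no exon summed to 1381, 727, 780 and 664 counts, or 23.3, 16.9, 15.5 and 14.6 CPM, with SNORD104 the largest part. SNORA73B in SNHG3 had 285, 134, 149 and 254 counts, or 4.82, 3.11, 2.97 and 5.57 CPM. SNORA73B and SNHG3 were both lower after course 1, but after course 3 SNHG3 was near parental and SNORA73B was not. The other 20 summed to 7.67, 4.13, 4.96 and 4.98 CPM. Unspliced host RNA and mature snoRNAs cannot be told apart in these counts.

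The same 4 libraries were described for 7 lists of related genes. The cytosolic ribosomal proteins, whose mRNAs carry the tract, had 74 tested genes, of which 66 were above parental in all 3 DMSO libraries and 3 below (24.6% and 25.2% of all genes). Their median log2 ratios were 0.25, 0.36 and 0.60 after courses 1, 3 and 5, against medians of -0.020, -0.018 and -0.13 for the hosts. RPL13 had 1018, 1674, 1863 and 2344 CPM and RPS19 had 1309, 1918, 1847 and 2264 CPM. The counts of RPL41 went the other way, with 22.1, 15.7, 16.8 and 10.8 CPM. Reads aligned to several places are counted for no gene, and their part in the RPL41 values was not tested. Of the 19 other tested mRNAs with a tract, 12 were above parental in all 3 and 1 below, with medians of 0.12, 0.32 and 0.60. Among them EEF1A1, the elongation factor that brings aminoacyl-tRNA to the ribosome, had 3003, 3592, 4533 and 5586 CPM, with a slope of 0.18 beside 0.18 for GAS5. PABPC1, the poly(A)-binding protein, had a slope of 0.18. None of these genes was called by edgeR in either fit.

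**Figure D5:**
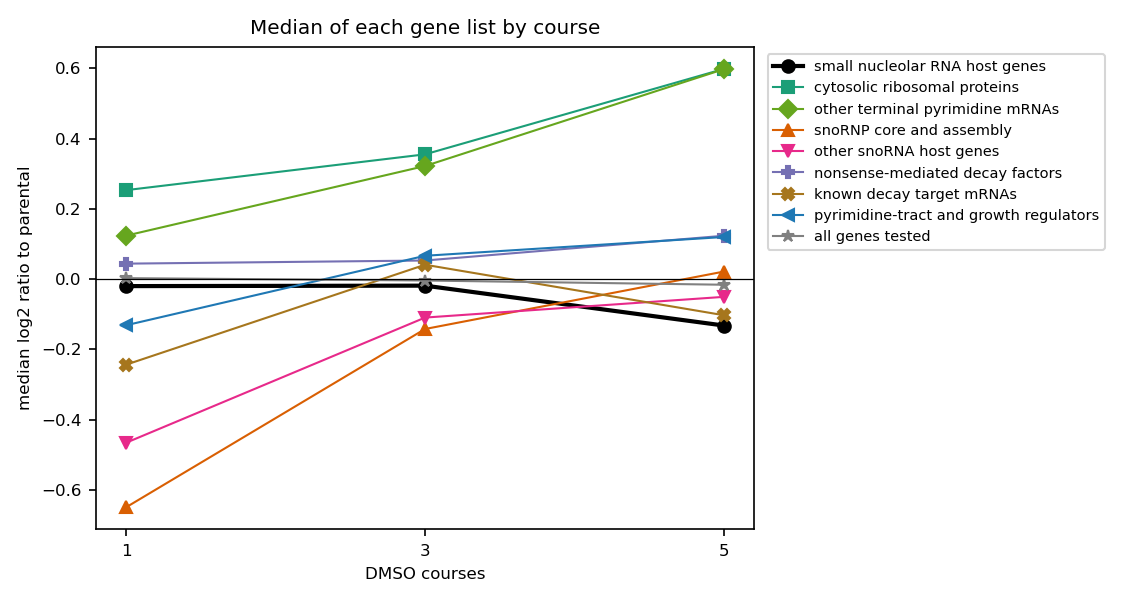
Median log2 ratio to the parental library after 1, 3 and 5 DMSO courses for the host genes, the 7 lists of related genes and all genes tested. The ribosomal protein and other tract mRNA medians reach 0.60 after course 5, the snoRNP median is -0.65 after course 1, and the host median lies between -0.13 and -0.018.

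Proteins that build the snoRNA particle followed another course. Of 18 tested snoRNP core and assembly genes, 17 were below parental after course 1, with a median log2 ratio of -0.65, and the medians after courses 3 and 5 were -0.14 and 0.022. NOP56, a core protein of C/D box particles, had 455, 217, 358 and 324 CPM, and NOLC1, which escorts snoRNPs in the nucleolus, had 242, 78.6, 189.5 and 229 CPM. The SNHG4 values showed the same low course 1 library. No gene of the list was above parental in all 3 DMSO libraries and 8 were below.

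Other genes that hold snoRNAs in their introns, 19 tested, had medians of -0.47, -0.11 and -0.050, with 5 above parental in all 3 and 8 below. HSPA8, the constitutive heat shock protein, had 630.1, 366, 327 and 345 CPM, and DANCR, a noncoding host, had 35.4, 17.7, 27.6 and 27.6 CPM. EEF2, on the same list, went the other way with 4541, 5499, 6400 and 8062 CPM. Of 16 nonsense-mediated decay factors, 7 were above parental in all 3 and 3 below, with medians of 0.044, 0.053 and 0.12. SMG5, which acts in dephosphorylation of UPF1, had 187, 207, 257 and 286 CPM. Of 16 tested mRNAs known as targets of that decay, 3 were above and 6 below, with medians of -0.24, 0.041 and -0.10. GADD45A, a stress-induced growth arrest gene, stood at 6.32, 8.54, 11.8 and 18.5 CPM and SRSF2, a splicing factor, at 383, 215, 252 and 238 CPM. Of 20 regulators of growth and tract-containing mRNAs, 3 were above and 2 below, with medians of -0.13, 0.067 and 0.12. MXI1, an antagonist of MYC, had 92.1, 223, 82.8 and 99.8 CPM. The lists share some genes, NOP56 and EEF2 among them, and no gene on these lists was called by edgeR.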

How the data were processed

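RNA of MOLM-13 cells was sequenced from TruSeq libraries, per the labels' protocols. The files deposited by the authors give unnormalized read counts for each Ensembl ID. The submitters' processing notes name the build hg19 and the tools HTSeq 0.6p1, TopHat2 2.0.11 and FastQC 0.11.5. All 58735 IDs match GENCODE release 29, annotated on GRCh38, so it is uncertain which build the counts rest on. Exon lengths, shared exon bases, snoRNA positions and distances between starts were taken from GENCODE release 29. They may differ from the annotation used in counting. Counting was reverse-stranded, as far as the deposited names tell. HTSeq's 5 summary rows (24.6% to 29.8% of reads) were left out.

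CPM used TMM factors. Genes were kept by filterByExpr (minimum count 10, total 15), leaving 18612, and were tested with edgeR 4.0.16 (quasi-likelihood, 2 residual degrees of freedom, adjusted p under 0.05); limma 3.58.1 and DESeq2 1.42.0 in R 4.3.3 were alternatives. The fits were tested on simulated data. Ratios of 2 libraries have exact binomial 95% intervals, covering counting error only (scipy 1.17.1). The 4 libraries differ beyond sampling noise. Named hosts are those with a mean of at least 10 CPM or a 2-fold ratio at a mean of at least 1 CPM, with full statistics for the 8 of smallest p. From each list, up to 4 genes with the largest DMSO against parental difference at 10 CPM or more could be named. Values of SNHG10 and SNHG11, the ranges of SNHG9, SNHG19, SNHG21 and SNHG22, which fall outside this rule, and the start-base, TATAA and transcript-start counts, were taken up after values were seen. The members and lists were chosen with earlier results of these data known.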

Additional observations from a re-analysis of the deposited data

Results flagged for a closer look

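In all, 3 hosts lay on opposite sides of the parental level after course 1 and after course 5, each beyond counting error, and the difference between these ratios was not tested against replicates. SNHG16 had log2 ratios of -0.50 after course 1 and 0.21 after course 5, a difference of 0.71. TAF1D had 0.084 and -0.050, a difference of -0.13. SNHG14 had 0.12 and -0.051, a difference of -0.17. SNHG16 kept both sides beyond counting error under each scaling tried, and the other two did not. With scaling by total library size TAF1D had -0.031 after course 1 (95% interval -0.070 to 0.0089) and SNHG14 had 0.0057 (-0.037 to 0.048). With DESeq2 size factors the course 5 ratio of SNHG14 was -0.042 (-0.085 to 0.0014). Of the 25 hosts tested, these 3 (12.0%) met that description, against 22.1% of all genes tested.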

How the results depend on the processing

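No paired analysis was possible because each group analysed has 1 library and the labels give the DMSO libraries no replicate number. With 4 libraries, calls depended on the method and on single libraries. In the DMSO against parental fit edgeR called 0 genes, DESeq2's Wald test 211, edgeR with no filter on low counts 13, and edgeR without 1 DMSO library 12 (course 5) to 2067 (course 1), with 32 without course 3; hosts called ranged from 0 to 1. In the slope fit the counts were 0, 880 with DESeq2, 134 with no filter, and 3 (without course 5) to 3927 (without parental), with 18 without course 3 and 2884 without course 1; hosts called ranged from 0 to 6. At 1.5-fold in place of 2-fold, hosts called lower after course 1 numbered 5, after course 3 higher 1 and lower 1, after course 5 higher 5 and lower 3, for course 3 to 1 higher 4, for course 5 to 1 higher 5 and lower 2, and for course 5 to 3 lower 2. Keeping only hosts with a mean of at least 5 CPM removed SNHG25, leaving 0 called lower in the comparisons of course 5 with parental, course 1 and course 3. That cut also removed SNHG26, leaving SNHG3 and SNHG4 called lower after course 1 relative to parental. With total library size the summed levels were 2546, 2345, 2862 and 3250.4 CPM, and with DESeq2 size factors course 3 had 2881 CPM. Of the values for single hosts under the alternatives, 418 kept their direction and their side of the threshold, 12 newly passed (all without course 1 or without parental) and 35 changed sign, none of these past the threshold. Leaving out 1 library in turn, the DMSO against parental difference spanned 0 for TAF1D (-0.030 to 0.035), SNHG14 (-0.030 to 0.054), SNHG16 (-0.30 to 0.059), SNHG9 (-0.29 to 0.046), SNHG21 (-0.38 to 0.067) and SNHG22 (-0.26 to 0.21), and the slope did for SNHG1 (-0.042 to 0.053), SNHG3 (-0.082 to 0.16), SNHG5 (-0.023 to 0.023), SNHG15 (-0.011 to 0.034), SNHG16 (-0.010 to 0.18), SNHG4 (-0.021 to 0.48), SNHG17 (-0.071 to 0.064), SNHG20 (-0.069 to 0.011), SNHG10 (-0.085 to 0.11), SNHG26 (-0.14 to 0.084), SNHG9 (-0.022 to 0.10), SNHG21 (-0.041 to 0.15) and SNHG22 (-0.26 to 0.012). Under other settings the difference turned negative for TAF1D (-0.072 with total library size, -0.013 with no filter, -0.033 at 5 CPM), SNHG14 (-0.059, -0.0001 and -0.020 likewise) and SNHG5 (-0.0029 with total library size). The slope of SNHG3 turned with limma-voom (0.0042), and that of SNHG21 with limma-voom (-0.0032), total library size (-0.0043) and no filter (-0.0002). The cause was not tested.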
